A study of Mus musculus with 6 samples.

Results

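The adult haemoglobin genes of the mouse were examined in RNA sequencing of brain. They are Hba-a1 and Hba-a2 for the alpha chain, and Hbb-bs and Hbb-bt for the beta chain. Alas2, the gene of the erythroid 5-aminolevulinate synthase, was examined together with them. These 5 genes are 5 of the 54532 gene identifiers in the table and were matched by their Ensembl identifiers in GENCODE M21. They had been chosen from their measured genotype difference in these same libraries, so their genotype differences are given as a description and without a test. All 5 passed the filter on low values, a mean FPKM (fragments per kilobase of gene, scaled to library depth) of at least 0.5 over all libraries, which 14862 genes passed. The other enzymes of heme synthesis, other red cell genes and genes of heme and iron handling are set beside them. These lists were drawn up with earlier results of these data known, so they are not independent of those results. Some of the red cell genes may have been in a red cell list used for them.

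The libraries came from brains of mice at postnatal day 15 and comprised 3 Angptl2+/+ and 3 Angptl2-/- samples, made to compare gene expression after loss of the secreted protein ANGPTL2. The Angptl2-/- mice lack exon 2 of Angptl2. They were bred on a C57BL/6 background from males in which Stra8-cre, active in the male germ line, had recombined a floxed allele, so the deletion is present throughout the body and is not limited to brain or blood. The samples are labelled as total cell types of the brain, and the sources used here do not say that each came from a separate mouse, whether the animals were perfused, or how the brains were dissected, so the p-values measure only the spread between these samples.

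Haemoglobin is a tetramer of alpha and beta globin chains, each of which holds a heme group with its iron. Red cell precursors make heme with their own first enzyme, ALAS2, encoded on the X chromosome, whereas other tissues, brain included, use ALAS1, and both cell kinds share the later enzymes. Mature mouse red cells have no nucleus, yet young ones, the reticulocytes, still carry abundant globin mRNA and some Alas2 mRNA. RNA of a whole tissue therefore includes that of the blood in its vessels. In such bulk samples fewer cells of a type and less RNA per cell cannot be told apart.

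The 2 alpha genes lie on chromosome 11 at 32283511-32284465 (Hba-a1) and 32296489-32297298 (Hba-a2), both on the plus strand, in GRCm38 coordinates. Hbb-bs and Hbb-bt lie on the minus strand of chromosome 7 and Alas2 on the plus strand of the X chromosome. The coding sequences of Hba-a1 and Hba-a2, 429 bases each, differed at 1 base, C381T, counted from the A of the start codon, with the Hba-a1 base first. Those of Hbb-bs and Hbb-bt, 444 bases each, also differed at 1 base, C417T, with the Hbb-bs base first. Neither difference changes the encoded protein. The last 90 coding bases, all in exon 3, are shown because they hold the only coding base that tells each pair apart, in capitals (GENCODE M21 transcripts, at chr11:32284302-32284391, chr11:32297119-32297208, chr7:103826665-103826754 and chr7:103812656-103812745).
Hba-a1: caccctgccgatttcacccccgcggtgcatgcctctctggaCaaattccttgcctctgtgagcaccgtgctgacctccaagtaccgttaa
Hba-a2: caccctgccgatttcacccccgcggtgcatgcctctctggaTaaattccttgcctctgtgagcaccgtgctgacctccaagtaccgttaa
Hbb-bs: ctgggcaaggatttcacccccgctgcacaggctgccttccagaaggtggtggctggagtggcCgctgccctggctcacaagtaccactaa
Hbb-bt: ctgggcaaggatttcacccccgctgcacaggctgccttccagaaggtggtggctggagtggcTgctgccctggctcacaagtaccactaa

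Reads can thus be told apart mainly by the untranslated ends of these genes. Of the 405 windows of 150 bases, the read length, along the main Hba-a2 transcript, 266 (65.7%) occur unchanged in that of Hba-a1. For Hbb-bs 281 of 479 windows (58.7%) occur in Hbb-bt. How such reads were counted by the authors is not stated in any source that was read. The split of reads within each pair is therefore uncertain, and the sum of each pair is given beside the single genes.

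The start regions of these genes are shown next because the members are known to answer to the same erythroid factors. GATA1 binds WGATAR, that is GATA with A or T before it and A or G after it, KLF1 binds CACCC elements, and CCAAT and TATAA are general promoter elements. These letters were searched on both strands in the 250 bases before each RefSeq start (GRCm38.p6) and are in capitals. Each printed stretch ends where the first GENCODE exon of the gene begins. The last capitals of Hbb-bt begin a CCAAT that continues past the printed end.
Hba-a2, chr11:32296242-32296488, plus strand: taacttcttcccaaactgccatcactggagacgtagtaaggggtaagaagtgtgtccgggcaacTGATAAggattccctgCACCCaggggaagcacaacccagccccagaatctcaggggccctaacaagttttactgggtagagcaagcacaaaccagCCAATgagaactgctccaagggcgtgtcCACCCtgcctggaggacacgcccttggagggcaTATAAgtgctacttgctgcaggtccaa
Hbb-bs, chr7:103828097-103828178, minus strand: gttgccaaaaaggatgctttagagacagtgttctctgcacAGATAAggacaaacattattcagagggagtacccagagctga
Hbb-bt, chr7:103813997-103814173, minus strand: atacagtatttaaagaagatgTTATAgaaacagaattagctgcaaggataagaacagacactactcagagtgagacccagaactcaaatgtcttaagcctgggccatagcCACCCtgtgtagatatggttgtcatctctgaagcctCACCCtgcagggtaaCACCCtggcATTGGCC
Alas2, chrX:150547167-150547374, plus strand: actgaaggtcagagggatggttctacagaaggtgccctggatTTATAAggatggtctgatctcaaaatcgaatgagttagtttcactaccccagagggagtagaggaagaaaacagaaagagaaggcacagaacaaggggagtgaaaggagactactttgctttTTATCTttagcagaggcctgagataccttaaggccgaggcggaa

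Over the whole 250 bases, Hba-a1, Hba-a2 and Hbb-bs each held all 4 motifs, which 1.08% of the 32851 promoters of the same length also did. A WGATAR match was present before 4 of the 5 genes and before 26.5% of all promoters, and Hbb-bt had none. CACCC matches were found before all 5 genes, with 3 each for Hbb-bt and Alas2, and before 52.0% of all promoters. CCAAT was present before the 4 haemoglobin genes and 33.8% of all promoters, and TATAA before all 5 and 22.8%. Each haemoglobin gene had a TATAA on its own strand that began 27 to 30 bases before the start, and Hbb-bt had another on the opposite strand 229 bases before it. Those of Alas2 lay 207 and 208 bases before the start and overlap on opposite strands. The CACCC matches of Alas2, all on the opposite strand, lie past the end of its printed stretch. The Hba-a1 and Hba-a2 regions were the same in all 247 bases that overlap after a shift of 3, while those of the beta pair matched in 127 of 249 bases (51.0%) when aligned without gaps. These matches describe the sequence and are not evidence of binding.

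The targeted gene was low in all libraries. Angptl2 measured 0.660, 0.958 and 0.291 FPKM in Angptl2+/+ replicates 1, 2 and 3 and 0.166, 0.320 and 0.126 FPKM in the Angptl2-/- replicates. The groups overlapped, and an exact permutation test gave p = 0.2 (two-sided, n = 3 against 3), where 0.1 is the smallest value this design allows. A value for the whole gene also counts reads outside exon 2, so it does not check the labels by itself.

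The libraries also differed in ways other than the targeted gene. The fragments assigned to genes numbered 17127276 to 18928921 per library. Xist, the RNA of the inactive X chromosome, was at 27.4 FPKM in Angptl2+/+ replicate 1, 27.9 in Angptl2+/+ replicate 2 and 42.2 in Angptl2-/- replicate 2, and at 0.0697 or below in the other 3. Cbln1, a cerebellar granule cell gene, was at 29.2 FPKM in Angptl2+/+ replicate 1 and at 4.60 to 7.59 in the others. Genes of the choroid plexus, the tissue that makes cerebrospinal fluid, summed to 1.95 to 8.89 FPKM over 10 genes in the Angptl2+/+ and 105 to 946 FPKM in the Angptl2-/- libraries. Ttr, the transthyretin gene, made up most of that sum, with 2.34, 4.29 and 0.580 FPKM against 141, 916 and 99.6 FPKM. All 8 of these genes that were tested had a higher mean log2 level in Angptl2-/-, 4 of them without overlap. Over all genes tested, 10.7% were separated in this way with the higher level in Angptl2-/-. Mitochondrial genes took 4.04%, 3.31% and 4.56% of the fragments in Angptl2+/+ and 4.13%, 4.93% and 5.75% in Angptl2-/-, the highest share being that of replicate 3.

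Hbb-bs, the major beta chain gene here, was the most abundant of the 5 genes. It measured 300.3, 268 and 165.1 FPKM in Angptl2+/+ replicates 1, 2 and 3 and 145 FPKM, 165.2 FPKM and 73.4 FPKM in Angptl2-/- replicates 1, 2 and 3. The Angptl2-/- mean was 52.3% of the Angptl2+/+ mean, and the log2 difference, Angptl2-/- minus Angptl2+/+ on log2(FPKM + 0.1), was −0.97 ± 0.34 (SE). Angptl2-/- replicate 2 lay just above Angptl2+/+ replicate 3, so the groups overlapped by this narrow margin.

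Hba-a1, the major alpha chain gene here, ranked the libraries like Hbb-bs apart from Angptl2-/- replicate 2. Its values were 162, 156 and 97.9 FPKM in Angptl2+/+ and 84.1, 83.5 and 37.1 FPKM in Angptl2-/-. All 3 Angptl2-/- libraries were below the lowest Angptl2+/+ library, with a log2 difference of −1.08 ± 0.35 (SE) and a mean at 49.2% of that of Angptl2+/+. Within each genotype the highest library exceeded the lowest by 1.66 times in Angptl2+/+ and 2.27 times in Angptl2-/-.

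The minor copies followed with lower values. Hbb-bt measured 26.0, 32.3 and 27.1 FPKM in Angptl2+/+ and 13.6, 16.9 and 10.1 FPKM in Angptl2-/-, without overlap, a log2 difference of −1.09 ± 0.19 (SE). Hba-a2 measured 5.21, 17.1 and 7.59 FPKM in Angptl2+/+ against 4.61, 5.60 and 2.20 FPKM in Angptl2-/-. Its groups overlapped, since Angptl2+/+ replicate 1 lay below Angptl2-/- replicate 2, and Angptl2+/+ replicate 2 stood far above the rest. The log2 difference of Hba-a2 was −1.17 ± 0.48 (SE) over all libraries, −0.69 without Angptl2+/+ replicate 2 and −1.54 without Angptl2+/+ replicate 1.

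Alas2, the first enzyme of erythroid heme synthesis, had the narrowest Angptl2+/+ values, 4.06, 3.89 and 3.87 FPKM. In Angptl2-/- it measured 3.32, 2.76 and 2.08 FPKM. All Angptl2-/- libraries were below all Angptl2+/+ libraries, at 69.1% of their mean and a log2 difference of −0.54 ± 0.18 (SE), the smallest of the 5. These values rest on 158 to 174 fragments per Angptl2+/+ library and 82 to 153 per Angptl2-/- library.

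**Figure D1:**
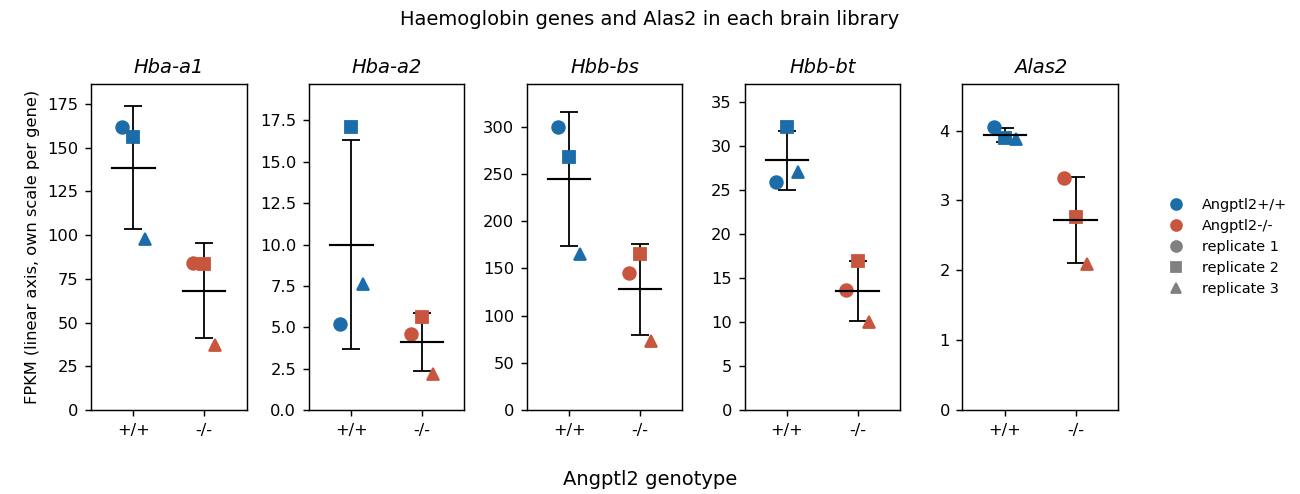
FPKM of Hba-a1, Hba-a2, Hbb-bs, Hbb-bt and Alas2 on linear axes of their own scale, with 1 symbol per library (shape for the replicate number), a line for the mean and bars for the SD of 3 libraries per genotype. Angptl2-/- replicate 3 is the lowest library in all 5 panels, and the genotypes do not overlap for Hba-a1, Hbb-bt and Alas2.

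Angptl2-/- replicate 3 was the lowest of the 6 libraries for each of the 5 genes. Their median log2 difference was −1.08, beside a median of −0.0043 over all 14862 genes tested, and −0.69 when that library was left out. Without it Hba-a1 stood at −0.69, Hbb-bs at −0.61, Hba-a2 at −0.78, Hbb-bt at −0.89 and Alas2 at −0.37. It was also the library with the highest mitochondrial share. With all libraries rescaled to the sum without mitochondrial and haemoglobin genes, the median was −1.02. Non-overlapping groups, with all Angptl2-/- libraries below all Angptl2+/+ libraries, were found for 3 of the 5 members and for 11.8% of all genes tested. Because the choice of members used this contrast, nothing is read from that count.

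By pair, Hba-a1 and Hba-a2 summed to 167 FPKM, 173 FPKM and 106 FPKM in Angptl2+/+ and 88.7, 89.1 and 39.3 FPKM in Angptl2-/-. Hbb-bs and Hbb-bt summed to 326, 301 and 192 FPKM and to 159, 182 and 83.4 FPKM. Both sums were below all Angptl2+/+ libraries in each Angptl2-/- library, so the crossing of Hbb-bs does not appear in the beta pair. The log2 differences were −1.10 for the alpha pair and −0.99 for the beta pair.

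The balance of the chains varied much less than their level. The beta to alpha ratio of the FPKM sums averaged 1.84 ± 0.11 over the 3 Angptl2+/+ libraries (SD) and 1.98 ± 0.17 over the 3 Angptl2-/- libraries. It ranged 1.22-fold over the 6 libraries, from 1.74 to 2.12, while the haemoglobin sum ranged 4.02-fold, from 123 to 494 FPKM. Within the alpha pair the share of Hba-a2 was 3.11, 9.90 and 7.20% in Angptl2+/+ and 5.20, 6.28 and 5.58% in Angptl2-/-. The share of Hbb-bt in the beta pair lay between 7.96 and 14.1% in all libraries. Both shares depend on how reads common to the copies were assigned, and the genotypes overlapped in each.

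**Figure D2:**
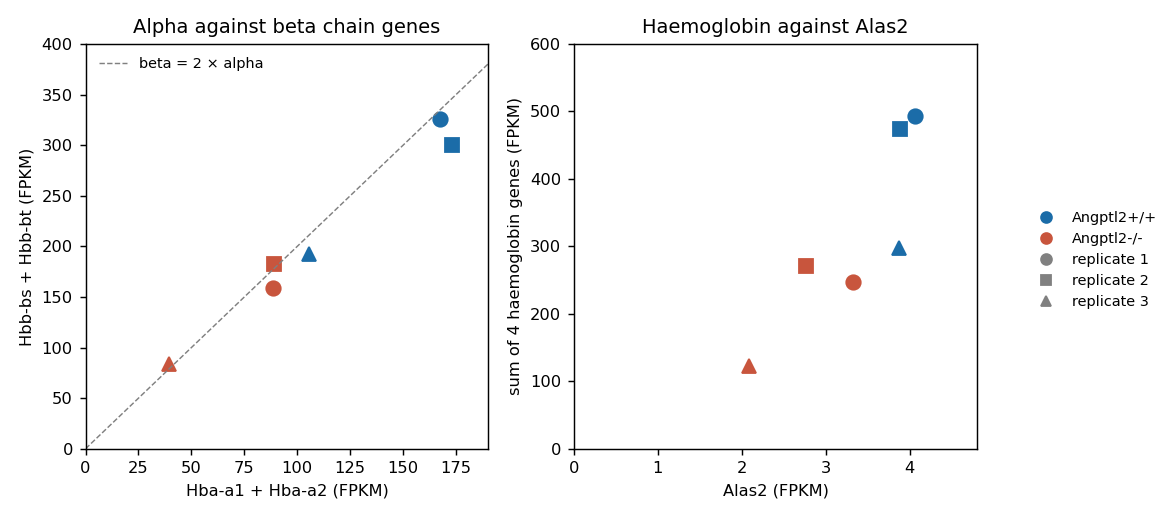
Left, the FPKM sum of the beta chain genes against that of the alpha chain genes in each library, with a dashed line at 2 beta per alpha. Right, the sum of the 4 haemoglobin genes against Alas2. Color marks the genotype and shape the replicate. The left points stay near 1 line over a 4.02-fold range, while on the right Angptl2+/+ replicate 3 has the Alas2 level of its group at a haemoglobin sum of 298 FPKM.

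The 4 haemoglobin genes took 0.0393%, 0.0372% and 0.0215% of the fragments in Angptl2+/+ replicates 1, 2 and 3. In Angptl2-/- they took 0.0195%, 0.0204% and 0.00909%. The 95% intervals (exact Clopper-Pearson) were 0.0209 to 0.0222% for Angptl2+/+ replicate 3 and 0.0198 to 0.0211% for Angptl2-/- replicate 2. These intervals of the closest pair across genotypes cover counting error only, and they overlapped. They are shares of the fragments summed over genes, 18167953 and 17368355 in these libraries. The depth that the FPKM values imply was 16976445 and 16879422. Intervals over that depth were not computed, so the overlap is stated for the summed fragments only. The haemoglobin sum per unit of Alas2 was 122, 122 and 76.9 in Angptl2+/+ and 74.5, 98.3 and 58.9 in Angptl2-/-. Angptl2+/+ replicate 3 thus stood with its group for Alas2 and near the Angptl2-/- libraries for haemoglobin.

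Alas2 lies on the X chromosome and the libraries with Xist were not spread equally, so the values were also set out within each kind. Among libraries with Xist, the haemoglobin sum was 494 and 474 FPKM in Angptl2+/+ and 271 FPKM in Angptl2-/-. Among those without it was 298 FPKM in Angptl2+/+ and 247 and 123 FPKM in Angptl2-/-. The log2 difference of Alas2 was −0.51 with Xist and −0.54 without. These values come from 2 libraries against 1 in each kind and no test was run on them. They are those on which the genes were chosen, and the part of Xist status in them was not tested.

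Heme is made in 8 steps, and Alas2 or its housekeeping counterpart Alas1 carries out the first. Of the 8 other genes of the pathway, 0 passed an adjusted p of 0.05 in the limma test across all genes (Benjamini-Hochberg over 14862 genes), and 0 had an unadjusted p under 0.05. Over all genes 0.0% passed the adjusted threshold, in limma and also in voom on recovered fragments. By limma's unadjusted p, 9.12% of genes were under 0.05 with a lower level in Angptl2-/- and 7.09% with a higher one. The median log2 difference of the 8 genes was −0.05. Among the 5 chosen genes, Alas2 is the only one whose product takes part in heme synthesis.

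Alas1 measured 9.24, 8.48 and 10.6 FPKM in Angptl2+/+ and 8.82, 8.80 and 10.1 FPKM in Angptl2-/-. This was above Alas2 in every library, and its log2 difference was −0.02 ± 0.12 (SE, adjusted p = 0.94). Alad, which condenses the product of that step into porphobilinogen, differed by −0.22 (adjusted p = 0.40). Uros, which closes the ring, differed by −0.08 (adjusted p = 0.73). Urod, which trims its side chains, had the largest difference of the pathway, −0.29 (adjusted p = 0.32), with 13.04, 10.1 and 10.8 FPKM against 9.66, 9.47 and 8.53 FPKM. The Urod groups did not overlap, and with each library corrected for GC content the difference was −0.15.

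The last steps of the pathway take place in mitochondria. Cpox and Ppox, the 2 oxidases, differed by −0.16 (adjusted p = 0.63) and −0.03 (adjusted p = 0.96). Fech, which inserts the iron, measured 19.8, 18.4 and 23.5 FPKM in Angptl2+/+ and 19.1, 20.97 and 22.7 FPKM in Angptl2-/-, a log2 difference of 0.03 ± 0.13 (SE, adjusted p = 0.92). The summed level of the 8 genes was 60.6 to 70.0 FPKM in Angptl2+/+ and 60.4 to 65.4 FPKM in Angptl2-/-, so the genotypes overlapped.

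The mRNAs of many red cell proteins were at or near 0 in these brains. Of 24 listed red cell genes, 23 were in the table, 9 were abundant enough to be tested and 11 had a mean under 0.1 FPKM. Slc4a1, the anion exchanger band 3 of the red cell membrane, measured 0.0361 to 0.0802 FPKM in Angptl2+/+ and 0.0121 to 0.0874 FPKM in Angptl2-/-. Hemgn and Rhag were above 0 in 1 library each, and Kel was at 0 in all libraries. A count of 0 fragments allows up to 3 per library, which for Kel corresponds to at most 0.0660 FPKM.

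Of the 9 red cell genes tested, 0 passed the adjusted threshold, 2 had a lower level with an unadjusted p under 0.05, and the median log2 difference was −0.13. Over all genes 9.12% had such a lower level. With each library corrected for GC content, 0 of the 9 had one, beside 514 of all 14862 genes tested. The most abundant of the 9 was Prdx2, a peroxiredoxin also made in brain. It measured 65.0 to 70.5 FPKM over all libraries and differed by −0.01 (adjusted p = 0.95). The smallest unadjusted p-values were those of Ank1 (−0.71, adjusted p = 0.27), Sptb (−0.42, adjusted p = 0.28) and Bpgm (−0.26, adjusted p = 0.33). Ank1 and Sptb encode ankyrin and beta spectrin of the membrane skeleton, which neurons also use, and Bpgm makes the red cell metabolite 2,3-bisphosphoglycerate. In all 3 the genotypes did not overlap, while they overlapped in the other 6 of the 9 tested. Over all genes tested, 11.8% were separated in this way with the lower level in Angptl2-/-. The 3 were named for their small p, so their separation is not a further result. After a correction of each library for GC content the differences of Ank1, Sptb and Bpgm were −0.44, −0.15 and −0.24.

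Regulators of red cell formation were likewise divided between those at the floor and those used in brain. Gata1, the main erythroid GATA factor, measured at most 0.0231 FPKM, and Nfe2, Gfi1b and Klf1 at most 0.123, 0.0570 and 0.194 FPKM. Of 14 regulators, 9 were tested and 0 passed the adjusted threshold. A lower level with an unadjusted p under 0.05 was found for 2 of the 9, and for 9.12% of all genes. The 2 were Zfpm1, the GATA cofactor FOG1, at −0.87 (adjusted p = 0.27) and Ldb1, which bridges GATA1 and TAL1 complexes, at −0.34 (adjusted p = 0.28). With the GC correction they stood at −0.32 and −0.04. In that setting 0 of the 9 had such a p with a lower level, beside 514 of all 14862 genes tested. Gata2 followed at −0.44 (adjusted p = 0.39), or −0.13 with that correction, and the list median was −0.16. The 14 regulators summed to 59.9 to 64.4 FPKM in Angptl2+/+ and 46.3 to 55.4 FPKM in Angptl2-/-, without overlap. This sum, not corrected for GC content, includes Zfpm1, with means of 10.6 FPKM in Angptl2+/+ and 5.77 FPKM in Angptl2-/-. It also includes Ldb1, with means of 19.4 and 15.5 FPKM, so it is not a result apart from these genes.

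**Figure D3:**
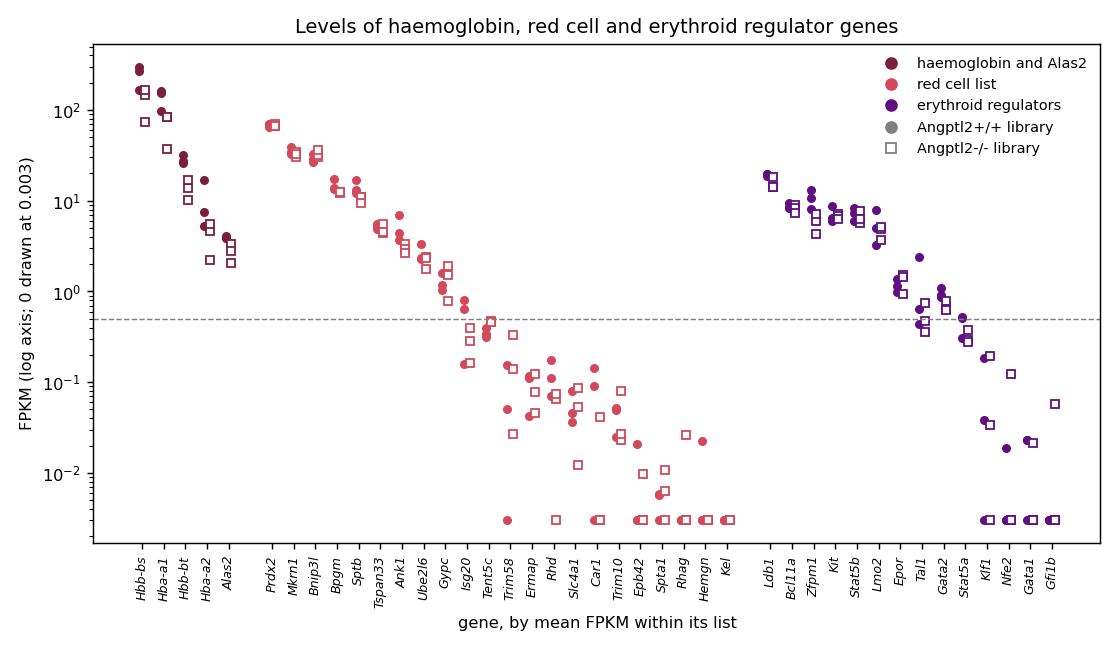
FPKM on a log axis for the haemoglobin genes and Alas2, 22 red cell genes and 14 erythroid regulators, with filled circles for Angptl2+/+ and open squares for Angptl2-/- libraries. Values of 0 are drawn at the bottom and the dashed line is the mean FPKM of 0.5 required for testing. Hbb-bs and Hba-a1 lie above 37 FPKM in every library, while Slc4a1, Gata1 and Klf1 lie below 0.2 FPKM.

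Other globins gave little signal. The embryonic genes Hba-x, Hbb-bh1 and Hbb-bh2, and also Hbb-bh0 and Hbb-bh3, were at 0 in all 6 libraries, and Hbb-y was above 0 in Angptl2+/+ replicate 2 alone, at 0.178 FPKM. A count of 0 allows up to 0.195 FPKM of Hba-x in a library. Only Hbq1a, a theta-like alpha globin, Ngb, the neuronal neuroglobin, and Cygb, the broadly made cytoglobin, were tested. Their log2 differences were −0.31 (adjusted p = 0.73), −0.47 (adjusted p = 0.64) and −0.49 (adjusted p = 0.38), and all 3 overlapped between genotypes. With the GC correction they were −0.15, −0.19 and −0.17. Single libraries also moved them, since Ngb was −0.09 without Angptl2-/- replicate 2 and −0.95 without Angptl2+/+ replicate 3, and Cygb −0.25 without Angptl2+/+ replicate 1 and −0.77 without Angptl2+/+ replicate 3. Cygb was the most abundant, with 23.5, 17.6 and 11.3 FPKM against 14.4, 10.6 and 10.9 FPKM. Hbb-b1 and Hbb-b2, the beta genes of another mouse haplotype, had no match in GENCODE M21.

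Iron for heme enters cells through the transferrin receptor. Tfrc measured 18.9, 24.3 and 36.4 FPKM in Angptl2+/+ and 36.3, 44.6 and 66.9 FPKM in Angptl2-/-, so its order of libraries ran opposite to that of Alas2 at both ends. Its log2 difference was 0.90 ± 0.29 (SE, unadjusted p = 0.017, adjusted p = 0.27), and Angptl2+/+ replicate 3 lay just above Angptl2-/- replicate 1. Of 12 genes of heme and iron supply tested, 0 passed the adjusted threshold, and the median log2 difference was 0.06. The unadjusted p was under 0.05 for 3 with a higher and 2 with a lower level, beside 7.09% and 9.12% of all genes. With each library corrected for GC content these counts were 1 and 0, beside 506 and 514 of all 14862 genes tested.

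The mRNAs of Alas2 and Tfrc both carry iron-responsive elements, hairpins bound by the iron regulatory proteins IREB2 and ACO1. The element of Alas2 is shown because the same proteins bind it and that of Tfrc. It was located in the 126-base leader of the main transcript by its loop letters, in capitals, which occur once there. The 30 bases run from chrX:150547458 to the end of exon 1 at 150547485 and continue with 2 bases of exon 2 from 150552149, on the plus strand (GRCm38).
Alas2 element: ttggttcgtcctCAGTGCagggcaacagga

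Ireb2 was at 10.05, 9.10 and 10.3 FPKM in Angptl2+/+ and 11.7, 13.5 and 14.5 FPKM in Angptl2-/-. All 3 Angptl2-/- libraries were above all Angptl2+/+ libraries, as for 10.7% of all genes tested, and the log2 difference was 0.42 ± 0.12 (SE, unadjusted p = 0.0081, adjusted p = 0.27). Aco1 differed by 0.03 (adjusted p = 0.91). The 2 with lower levels, both without overlap, were Slc25a28, the mitochondrial iron carrier mitoferrin 2 (−0.30, adjusted p = 0.27), and Slc25a38, a mitochondrial glycine carrier (−0.30, adjusted p = 0.28), which stood at −0.18 and −0.08 with the GC correction described next. Across all genes tested, the log2 difference correlated with GC content at r = −0.479. The GC content of Tfrc and Ireb2 was 39.8 and 39.0%, and that of the haemoglobin genes and Alas2 50.8 to 57.2%. With each library corrected for GC content the differences were 0.63 for Tfrc and 0.13 for Ireb2, and −1.02 to −0.42 for the haemoglobin genes and Alas2. The part of GC content in these differences was not tested beyond this correction.

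Among the genes of heme transport and breakdown, 3 of the 10 tested had a lower level with an unadjusted p under 0.05 and 0 a higher one. Over all genes these shares were 9.12% and 7.09%. With the GC correction the counts were again 3 and 0, though not of the same genes. Of all 14862 genes tested, 514 were lower and 506 higher at such a p with that correction. In the list 0 passed the adjusted threshold, and the median log2 difference was −0.22. Its 12 genes summed to 121 to 128 FPKM in Angptl2+/+ and 97.1 to 112 FPKM in Angptl2-/-, without overlap. The sums of the red cell list and of the heme and iron supply list overlapped. Blvrb, a flavin and biliverdin reductase rich in red cells, measured 1.59, 1.84 and 1.46 FPKM in Angptl2+/+ and 1.16, 0.745 and 0.571 FPKM in Angptl2-/-. It did not overlap and differed by −0.95 ± 0.27 (SE, unadjusted p = 0.010, adjusted p = 0.27). Slc48a1, a lysosomal heme transporter and the most abundant of the list, differed by −0.32 (adjusted p = 0.27), from 51.1 to 57.4 FPKM in Angptl2+/+ to 42.3 to 44.5 FPKM in Angptl2-/-. Flvcr2, a transporter of the brain endothelium, differed by −0.62 (adjusted p = 0.29). With the GC correction the values were −0.82 for Blvrb, −0.56 for Flvcr2 and −0.09 for Slc48a1. The heme oxygenases Hmox1 and Hmox2, which open the heme ring, differed by −0.16 (adjusted p = 0.76) and −0.12 (adjusted p = 0.65), or −0.042 and −0.098 with the GC correction. They are named here, as are Aco1, Slc25a28 and Slc25a38 above and the red cell genes given only by their level, although the selection rule does not cover them.

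**Figure D4:**
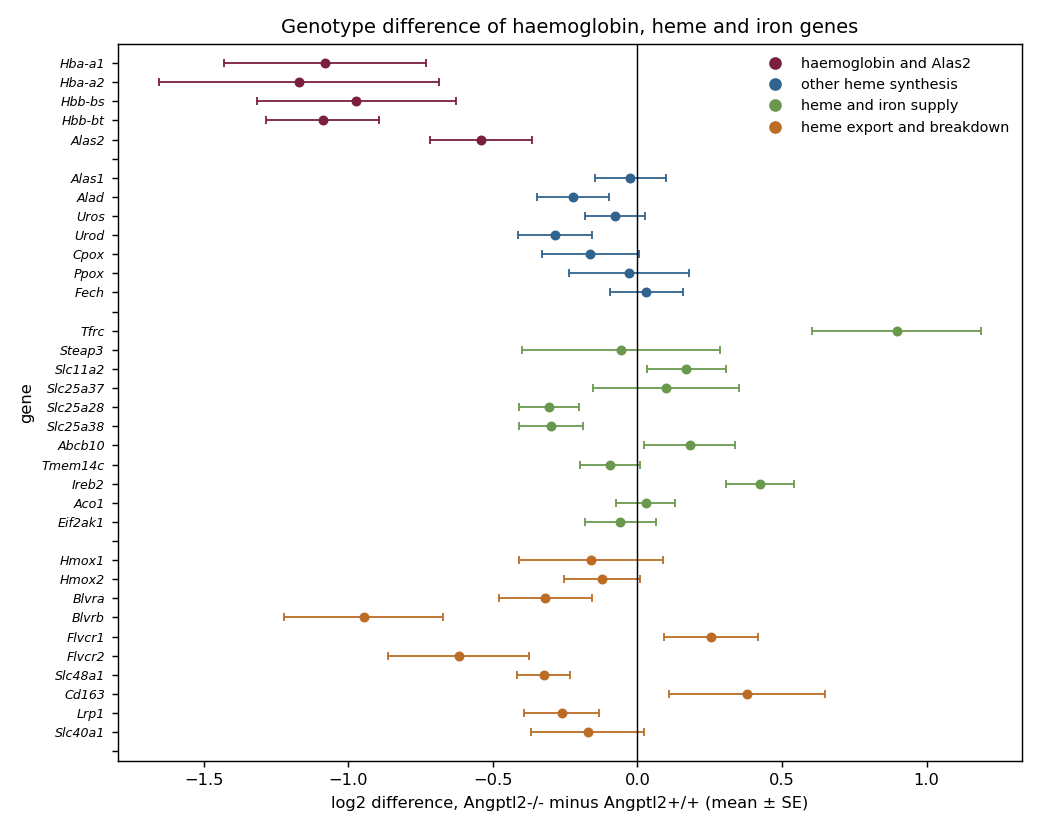
Log2 difference, Angptl2-/- minus Angptl2+/+, with its SE, for the haemoglobin genes and Alas2, 7 other heme synthesis genes, 11 genes of heme and iron supply and 10 of heme transport and breakdown. The 5 chosen genes lie between −1.17 and −0.54, the other heme synthesis genes shown between −0.29 and 0.03, and Tfrc at 0.90 and Blvrb at −0.95 stand furthest out in their lists.

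Markers of other blood cells were low and gave no genotype call. Platelet genes summed to 2.92 to 3.77 FPKM over 9 genes in Angptl2+/+ and 1.71 to 4.29 FPKM in Angptl2-/-, with Pf4, platelet factor 4, the most abundant. Neutrophil genes summed to 1.35 to 1.72 FPKM and 1.12 to 2.09 FPKM over 10 genes, led by S100a9. Lymphocyte genes summed to 6.29 to 8.77 FPKM and 5.45 to 6.75 FPKM over 10, led by Ighm, and monocyte genes to 0.443 to 0.758 FPKM and 0.455 to 0.546 FPKM over 6, led by Itgal. In all 4 lists the sums of the genotypes overlapped. Only 6 of these genes, none of them from the monocyte list, were abundant enough to be tested, and 0 of the 6 had an adjusted or unadjusted p under 0.05. Elane and Gp1bb were at 0 in all libraries.

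Vessel markers moved unequally. Cldn5, a tight junction protein of brain endothelium, measured 42.5, 44.4 and 33.7 FPKM in Angptl2+/+ and 30.4, 24.6 and 20.002 FPKM in Angptl2-/-, a log2 difference of −0.69 (adjusted p = 0.27) that was −0.32 with the GC correction. Over all 12 endothelial genes the median was −0.05, and 11 of the 12 overlapped between genotypes. Of all genes tested, 11.8% were separated with the lower level in Angptl2-/- and 10.7% with the higher one, and the rest overlapped. The sums of the 12 endothelial genes, 170.2 to 199 FPKM and 162 to 166 FPKM, did not overlap. Pericyte and smooth muscle genes summed to 51.7 to 73.8 FPKM and 48.3 to 73.6 FPKM over 9 genes. Vtn, the most abundant, differed by −0.31 (adjusted p = 0.61), or −0.11 with the GC correction. Meningeal genes, dominated by Ptgds, summed to 264, 187 and 41.8 FPKM over 8 genes in Angptl2+/+ and 111, 116 and 89.8 FPKM in Angptl2-/-, so the library with the lowest haemoglobin in Angptl2+/+ also had the lowest meningeal sum. Microglial genes summed to 133 to 152 FPKM and 117 to 136 FPKM over 9, with overlap. Cerebellar genes, led by Calb1, summed to 70.4 to 166 FPKM and 56.2 to 63.9 FPKM over 9. These sums did not overlap, but 8 of the 9 genes overlapped between genotypes. Calb1 itself differed by 0.15, or −0.20 with the GC correction. The part of vessel, meningeal, choroid plexus or cerebellar content in the haemoglobin values was not tested.

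Among themselves the 5 genes varied together over the 6 libraries, closest for Hba-a1 and Hbb-bs (Pearson r = 0.993 on log2 values, n = 6 libraries) and least for Hba-a2 and Alas2 (r = 0.743). The 10 protein-coding genes most like their mean, out of 11717 with a mean FPKM of at least 1, were Slc29a2, Pex6, Rxrb, Cisd3, Rita1, Ndufb8, Nudt3, Znhit1, Lims2 and Upf3a, with r from 0.988 to 0.996 over 6 libraries. Slc29a2, a nucleoside transporter, was the closest, with 6.32, 6.81 and 5.93 FPKM in Angptl2+/+ and 5.38, 5.37 and 4.47 FPKM in Angptl2-/-. Its log2 difference was −0.32, and those of the 10 ran from −0.82 for Ndufb8, a subunit of respiratory complex I, to −0.24 for Znhit1. An r of at least 0.95 was reached by 143 genes, and all points share the same 6 libraries and the same genotype split. No gene of the lists used here was among the 10, and the best placed, Cldn5 (r = 0.944), ranked 182. Blvrb had an r of 0.923 and Tfrc of −0.891.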

How the data were processed

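RNA of 3 Angptl2+/+ and 3 Angptl2-/- brain samples was sequenced in paired-end mode at 150 bases on an Illumina instrument. The authors deposited 1 FPKM value per gene and library. The submitters' processing notes name Bowtie 0.12.2 and mm8, while no source that was read names the counting tool, annotation, strandedness or any filter. The identifiers (54495 of 54532 matched) and gene lengths, however, fit GENCODE M21 (GRCm38), which was used for symbols and coordinates. FPKM multiplied by exon length gave whole fragments, to within 0.05, for 96.6 to 96.8% of values above 0. Rounded and summed over genes, these came to 17127276 to 18928921 fragments per library. The depth that the FPKM values imply was 16382565 to 19175246. An FPKM value is relative to the other RNA of its library, so a gain in abundant RNA lowers all others.

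Genotypes were compared two-sided by limma 3.58.1 (R 4.3.3, intensity trend) on the scale log2(FPKM + 0.1). The 14862 genes whose mean FPKM reached 0.5 were tested, and p-values were adjusted by Benjamini-Hochberg over all of them. Such a fold change understates that of low genes. The members and lists were chosen with earlier results of these data known. Named genes were Angptl2, the 5 members, the other heme synthesis genes, the 3 genes of smallest p and the most abundant gene of each pathway list, the most abundant gene of each marker list, genes at 0 in all libraries, the 10 genes of most similar pattern, Xist and Cbln1. Any other gene was named after its values were seen. Of the genes under this rule or in the lists, 4 are counted in the list totals but are not reported singly here. Promoter sequences are those of RefSeq (GRCm38.p6), where all 5 members matched. Motifs were picked with these sequences in view.

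The code was first tested on simulated data with known changes. Alternatives were pseudocounts of 1 and 0.01, no filter, a mean FPKM of at least 1, 3 other scalings, no trend, robust moderation, a replicate block, each library left out, voom on recovered fragments, and loess corrections (span 0.3) for GC content of the gene's longest transcript and for exon length. Tables and figures used Python 3.11.15, pandas 2.3.3, scipy 1.17.1 and matplotlib 3.10.9.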

Additional observations from a re-analysis of the deposited data

How the results depend on the processing

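The log2 differences of Hba-a1, Hba-a2, Hbb-bs, Hbb-bt, Alas2, both pair sums and the median of the 5 genes stayed below 0 under all 19 alternatives. The median ran from −1.26 to −0.69, both ends set by leaving out 1 library, and was −0.89 with the GC correction. Hba-a1 ran from −1.31 to −0.69, Hbb-bs from −1.23 to −0.61, Hbb-bt from −1.26 to −0.89 and Alas2 from −0.69 to −0.37. Leaving out Angptl2-/- replicate 3 gave the smallest differences except for Hba-a2.

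Genes called at an adjusted p of 0.05 numbered 0 in limma and 0 with voom, 1 with the replicate block (Ttr, log2 difference 6.92, adjusted p = 0.023) and 0 to 1 with 1 library left out, the 1 being Gapdh without Angptl2+/+ replicate 1. At an unadjusted p under 0.05 there were 1054 genes higher and 1355 lower, against 1150 and 1229 with voom, 506 and 514 with the GC correction, 1728 and 857 after rescaling without mitochondrial and haemoglobin genes, and 465 to 1373 higher and 790 to 1656 lower with 1 library left out. That rescaling moved the median of all genes to 0.058 and the share of higher genes among these calls. Same-numbered libraries deviated from their group means with correlations of 0.037, −0.069 and 0.162 for replicates 1, 2 and 3. The highest correlations of these Angptl2+/+ replicates with an Angptl2-/- library of another number were 0.0014, 0.257 and 0.095. So few values cannot decide whether the numbers pair the samples. The replicate block changed no other call named here.

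The median of the red cell genes was −0.27 for the 6 left after removing genes that the heme lists share or whose mean FPKM reached 20. That of the erythroid regulators was −0.056 with the GC correction and −0.35 to −0.11 with 1 library left out. That of heme and iron supply was 0.13 after the rescaling and 0.0024 to 0.095 with 1 library left out. Angptl2 differed by −0.42 with a pseudocount of 1.

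Some small differences changed sign. Alas1 was 0.0018 with quantile normalization, 0.040 after the rescaling and 0.10 with the GC correction. Ppox was 0.032 and 0.086 in the latter pair. Prdx2 was 0.062, 0.050 and 0.031 in these 3 and 0.053 with the length correction. Alad was 0.016 and Calb1 −0.20 with the GC correction, and Fech −0.082 with it and −0.10 with the length correction. With 1 library left out the ranges that crossed 0 were −0.097 to 0.060 for Alas1, −0.19 to 0.084 for Ppox, −0.28 to 0.0061 for Cpox, −0.047 to 0.13 for Fech, −0.051 to 0.0044 for Prdx2, −0.67 to 0.0046 for Hbq1a, −0.91 to 0.15 for Pf4, −1.08 to 0.19 for S100a9, −0.35 to 0.15 for Itgal, −1.11 to 0.26 for Ptgds, −0.040 to 0.31 for Calb1. The cause was not tested. Depth limits Alas2 and Hba-a2 most, since 24 to 203 fragments stand behind each value.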
